A study of Mus musculus with 24 samples.

Results

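The genes described here are 10 members of the ADAMTS family of secreted proteases, Adamts1, Adamts2, Adamts4, Adamts5, Adamts9, Adamts10, Adamts12, Adamts15, Adamts17 and Adamts18, measured in mouse choroid with and without laser injury. They are 10 of the 19 ADAMTS protease genes and of the 56065 genes in the deposited table. The group was chosen from measured values of these libraries, because the laser effect on Adamts18 ran in opposite directions in wild type and Ceacam1-/- mice. All levels and changes of Adamts18 are therefore given as a description, with no test. The other 9 genes were taken as its family, with earlier results of these data known.

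RNA was sequenced from the choroid, here the complex of retinal pigment epithelium (RPE), choroid and sclera, of 24 libraries. Wild type mice gave 4 libraries without laser (libraries 21, 22, 26 and 27) and 9 with laser (libraries 1, 2, 3, 11, 12, 13, 16, 17 and 19). Ceacam1-/- mice, in which the first exons of the adhesion receptor gene Ceacam1 were deleted in all tissues, gave 4 without laser (libraries 23, 24, 25 and 28) and 7 with laser (libraries 4, 5, 6, 7, 14, 15 and 18). Laser groups received 6 laser burns per eye, a model of choroidal neovascularization. The study's methods describe young adult mice of both sexes, bred on C57BL/6J, with wild type littermates as controls, and the study treats the libraries without laser as separate mice. For the lasered mice, age, litter, the interval between laser and sampling, and whether each library is a separate animal are not given in the sources used here, nor is the sex of any mouse. The p-values of the laser comparisons therefore measure the spread between these libraries.

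ADAMTS proteases are secreted zinc metalloproteases that carry thrombospondin type 1 repeats, are processed by proprotein convertases such as furin, and cut large proteins of the extracellular matrix. Adamts1, Adamts4, Adamts5, Adamts9 and Adamts15 cleave the proteoglycans aggrecan and versican, Adamts2 removes the N-propeptide of fibrillar procollagens, Adamts10 and Adamts17 act on fibrillin microfibrils, and Adamts12 cleaves cartilage oligomeric matrix protein. The substrates of Adamts18 are less well known. Variants of the human gene cause an inherited disorder of the eye. TIMP3, a tissue inhibitor of metalloproteases deposited in Bruch's membrane beneath the RPE, blocks several of these enzymes.

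The promoters of 6 of the 10 genes were found in RefSeq sequence of build GRCm38.p6. Shown are the 250 bases before the annotated start of Adamts18, the gene the group was built around, and of Adamts1 and Adamts2. In wild type mice all laser values of Adamts1 and Adamts2 lay above those without laser, as for 4.5% of genes tested. The bases are written 5′ to 3′ on the gene's strand. Capitals mark 2 motifs, the TATA box, searched as TATAAA, and the GC box, searched as GGGCGG, each on either strand. The windows are chr8:113848840-113849089 (minus strand) for Adamts18, chr16:85803114-85803363 (minus strand) for Adamts1 and chr11:50601835-50602084 (plus strand) for Adamts2.
Adamts18: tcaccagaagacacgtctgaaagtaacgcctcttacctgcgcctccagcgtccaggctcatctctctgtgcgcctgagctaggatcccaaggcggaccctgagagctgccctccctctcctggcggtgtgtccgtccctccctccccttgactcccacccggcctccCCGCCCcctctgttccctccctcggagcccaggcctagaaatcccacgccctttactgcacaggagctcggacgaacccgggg
Adamts1: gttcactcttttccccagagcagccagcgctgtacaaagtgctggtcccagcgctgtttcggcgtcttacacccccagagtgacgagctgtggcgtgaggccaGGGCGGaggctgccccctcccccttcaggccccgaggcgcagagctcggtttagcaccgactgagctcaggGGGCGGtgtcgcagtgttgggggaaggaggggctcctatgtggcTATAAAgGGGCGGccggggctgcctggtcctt
Adamts2: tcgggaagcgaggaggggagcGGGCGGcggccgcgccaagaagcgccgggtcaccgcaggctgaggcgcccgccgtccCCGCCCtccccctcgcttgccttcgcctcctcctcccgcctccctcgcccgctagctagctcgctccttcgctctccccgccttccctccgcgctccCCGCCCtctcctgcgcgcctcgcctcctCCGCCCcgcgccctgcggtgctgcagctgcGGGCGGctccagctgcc

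The Adamts1 window held a TATA box 32 bases before the start and 3 GC boxes, at 147, 76 and 25 bases before it. The Adamts2 window held 5 GC boxes and the Adamts18 window 1, at 83 bases. In windows of 300 bases that included the 50 bases after the start, searched on both strands, TATAAA was present in 13.6% and GGGCGG in 35.7% of 32851 promoters. Of the promoters not shown, Adamts9 held 1 GC box, Adamts17 held 1 E-box (CACGTG, in 7.15% of promoters), and Adamts12 held none of the motifs searched. The AP-1 motif TGANTCA (in 7.81% of promoters) and the motif TAATCC of the photoreceptor factors CRX and OTX2 (in 7.06%) were found in none of the 6. The letters may overlap longer motifs, and a match is a description of the sequence only.

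The values are normalized counts, that is, read estimates per gene scaled to make libraries comparable. Their sum per library ranged from 23704300 to 35094400, and the read depth itself cannot be read from them. Of the members, Adamts10 and Adamts1 were the most abundant per kilobase of transcript in all 4 groups. In wild type choroid without laser, Adamts10 stood at 631 ± 255 (SD, n = 4) normalized counts per kb, Adamts1 at 223 ± 29.9 and Adamts2 at 116 ± 37.6, and the ranges of these neighbours did not overlap. Adamts15, Adamts4, Adamts5 and Adamts9 followed at 52.4, 51.5, 48.9 and 36.8 per kb, with overlapping ranges. Adamts12, Adamts18 and Adamts17 were the lowest, at 12.1, 11.3 and 8.25 per kb, and their ranges overlapped as well. Adamts18 was lowest of the 10 in the laser group of wild type mice (2.66 ± 2.00 per kb, n = 9) and in Ceacam1-/- mice without laser (5.36 ± 4.89, n = 4), but ranked above Adamts17 in the other two groups.

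Several libraries stood apart in the makeup of the tissue. The 11 photoreceptor marker genes, led by the rod transducin gene Gnat1, summed to 627366 normalized counts in library 14, 617189 in library 18 and 351221 in library 15, all from Ceacam1-/- mice with laser. They summed to 354711 in library 23 (Ceacam1-/- without laser) and 333553 in library 21 (wild type without laser), and to no more than 159249 in any other library. None of the 11 genes was at 0 in all libraries of a group. Within the Ceacam1-/- laser group, libraries 14, 15 and 18 were also the lowest in the summed RPE markers (40258 to 70308, against 177897 to 318176 in the other 4), in melanocyte markers (9580 to 27412, against 91629 to 184403) and in fibroblast markers (7938 to 16635, against 49506 to 71759). The same held for endothelial markers (9332 to 16980, against 24326 to 37763) and mural markers (8297 to 11871, against 23165 to 41593). In bulk tissue, fewer cells of a type and less RNA per cell cannot be told apart. For the results that changed most without these libraries, values without them are also given.

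Ceacam1 itself (chr7:25161128-25177257 in GRCm39) checked the genotype labels. It was listed at 774 to 8367 normalized counts in wild type with laser and at 958, 5027, 1242 and 4596 in wild type without. The 7 Ceacam1-/- libraries with laser ranged from 67.8 to 905, and the 4 without from 405 to 1171. The genotypes overlapped, with Ceacam1-/- libraries 15 and 28 above the lowest wild type value. The gene total includes the exons that were not deleted. Surface epithelium markers were also high in these libraries (479321 and 462968), as in wild type libraries 22 (353929), 19 (138712) and 27 (85158), which held the 3 highest Ceacam1 values of all. Their part in the Ceacam1 values was not tested.

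Adamts18 (ENSMUSG00000053399, chr8:114423758-114575370, minus strand, GRCm39) was read at low levels, and its group differences ran as follows. Wild type libraries without laser held 100.4, 60.2, 44.1 and 49.3 normalized counts (libraries 21, 22, 26 and 27). The 9 wild type laser libraries ranged from 4.51 (library 17) through a median of 10.8 to 39.9 (library 19), so that all lay below the lowest without laser. Non-overlap in this direction was found for 1.75% of the 19950 genes tested, and nothing is read from it here because the gene was chosen on this contrast.

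In Ceacam1-/- mice the order was turned. Libraries 23, 24, 25 and 28, without laser, held 69.3, 11.9, 9.61 and 30.2 normalized counts, against 27.6 at the lowest, 53.0 at the median and 154.8 at the highest in the 7 laser libraries. The groups overlapped, since libraries 23 and 28 lay above the lowest laser values. The log2 fold change with laser, on log2 of the value plus 1, was -2.22 (SE 0.57) in wild type and 1.49 (SE 0.60) in Ceacam1-/- mice, a difference of 3.71 (SE 0.83). Between genotypes, Adamts18 was at a log2 difference of 2.32 (SE 0.48) in Ceacam1-/- relative to wild type with laser and of -1.39 (SE 0.65) without laser.

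The 5 libraries with the most photoreceptor RNA were also the 5 with the most Adamts18: library 14 (154.8), 15 (152.6), 21 (100.4), 18 (89.9) and 23 (69.3). Library 19, the highest wild type laser library for Adamts18, had the highest photoreceptor sum of its group (127173). Without libraries 14, 15 and 18, the 4 remaining Ceacam1-/- laser libraries held 27.6, 32.1, 47.2 and 53.0, the log2 change in Ceacam1-/- mice fell to 0.76 and the difference between genotypes to 2.98. Without all 5 libraries, the wild type change was -1.97, the Ceacam1-/- change 1.29 and the difference 3.26. With a photoreceptor score as a covariate they were -1.72, 0.78 and 2.50. The Adamts18 difference between genotypes with laser was 1.59 without the 5 libraries and 1.60 with the covariate, and that without laser was -1.67 and -0.90. Inner retina markers (Snap25 and Glul the most abundant) were also highest in library 18 (73395), 14 (61782), 23 (47550), 21 (46780) and 15 (36830).

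**Figure D1:**
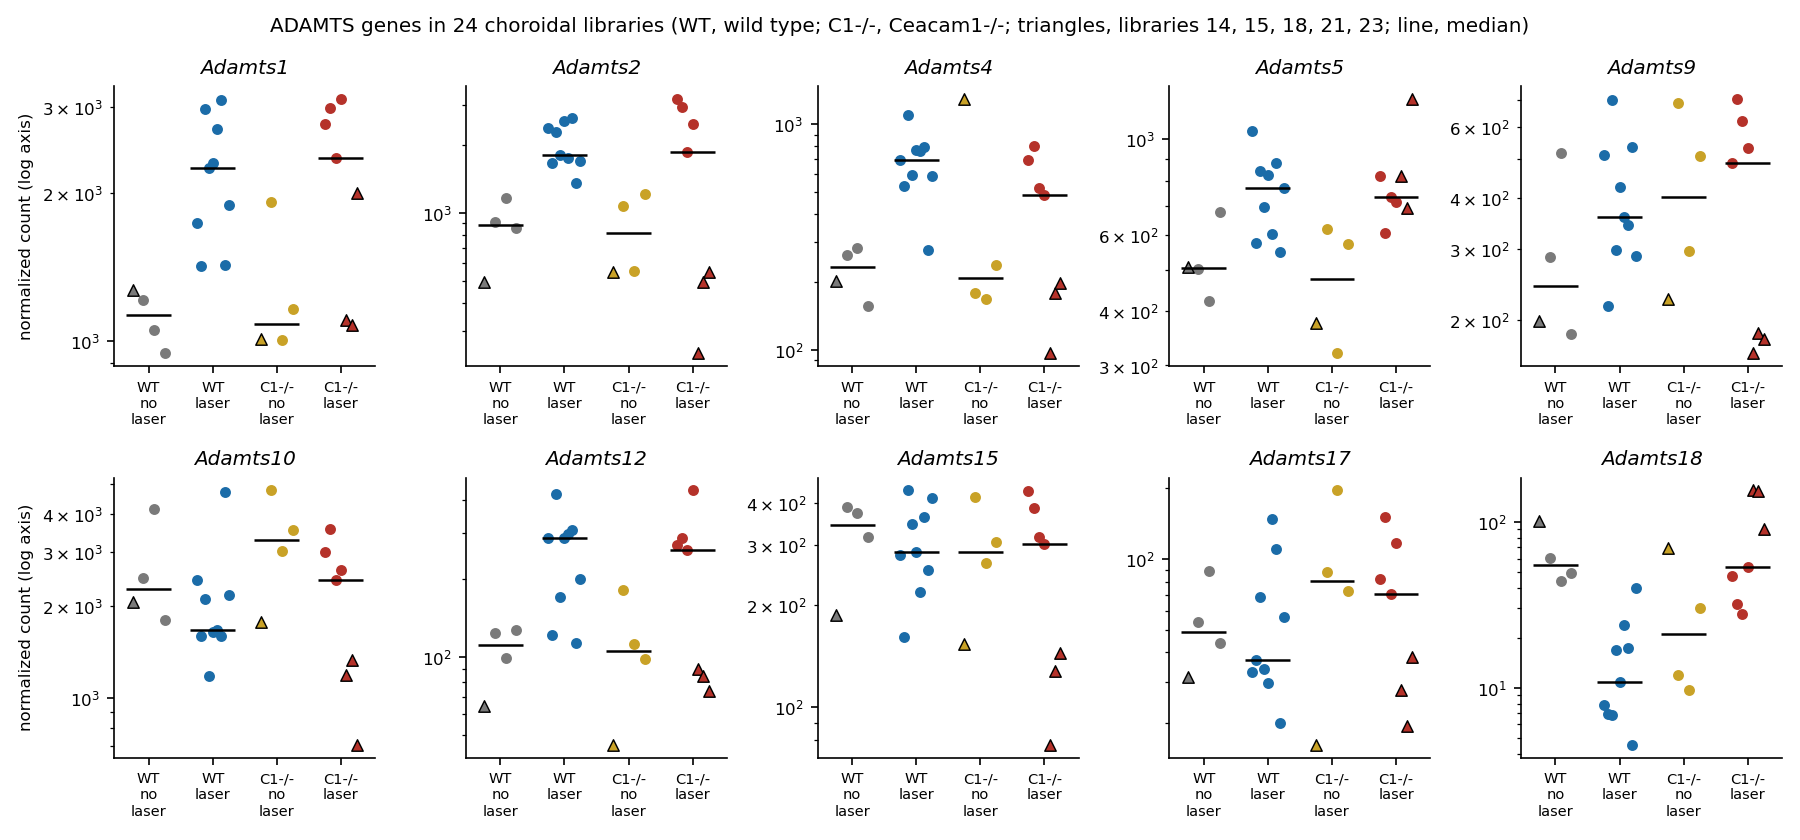
Normalized counts (log axis) of the 10 ADAMTS genes in each of the 24 libraries, by genotype (wild type, WT, and Ceacam1-/-, C1-/-) and laser, with a line at the group median. Triangles mark libraries 14, 15, 18, 21 and 23, which lie at the top of their groups for Adamts18 and, within the Ceacam1-/- laser group, at the bottom for Adamts2, Adamts4, Adamts9, Adamts10, Adamts12, Adamts15 and Adamts17.

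**Figure D2:**
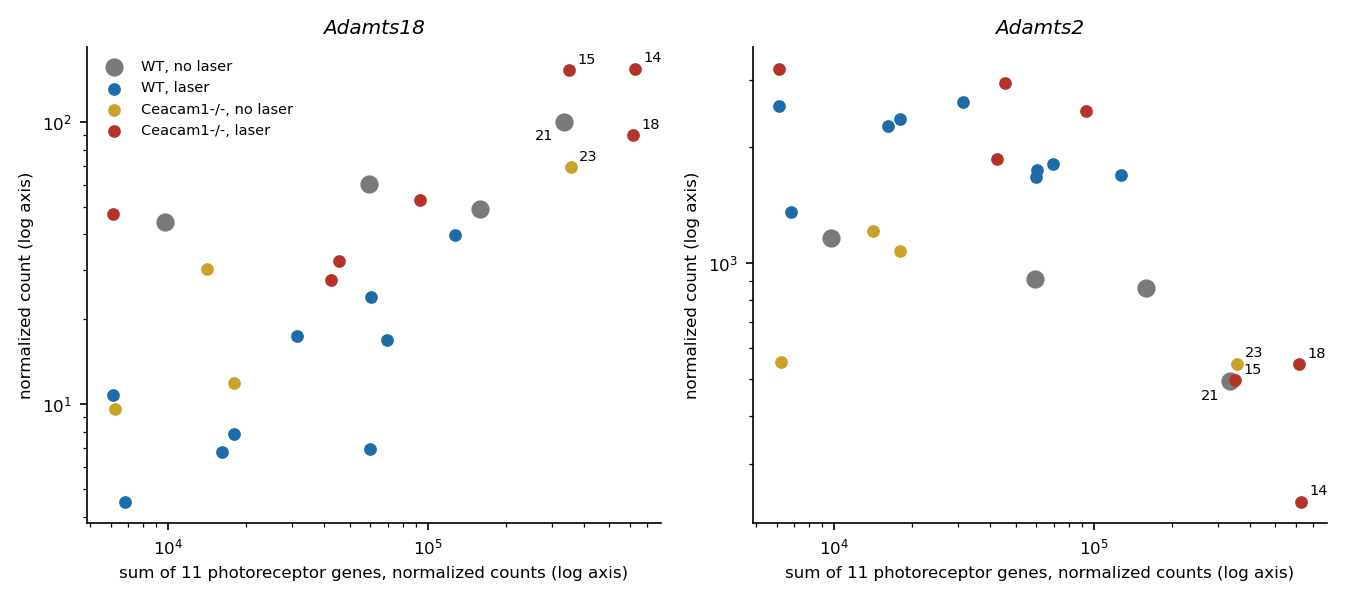
Normalized counts of Adamts18 and Adamts2 (log axes) against the sum of 11 photoreceptor genes in the same library, coloured by group, with libraries 14, 15, 18, 21 and 23 numbered. The 5 numbered libraries are highest for Adamts18, and the 3 from Ceacam1-/- mice with laser are lowest in their group for Adamts2. Points of wild type without laser are drawn larger, since libraries 21 and 15 coincide for Adamts2.

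The genes whose log2 values ran most like those of Adamts18 over the 24 libraries were Glb1l3 (Pearson r = 0.88), Jph4 (0.87), the long non-coding RNA Pax6os1 (0.86), Hlf (0.86) and Stk35 (0.86). Glb1l3 encodes a beta-galactosidase-like protein, Jph4 a junctophilin of neurons, and Hlf a transcription factor of the clock-linked PAR family. Glb1l3 had a median of 65.7 normalized counts in wild type without laser and 2.86 with laser, against 17.1 and 109.5 in Ceacam1-/- mice. Jph4 had medians of 164.6 and 55.9 in wild type and of 110.0 and 166.8 in Ceacam1-/- mice. Both genes were picked for their likeness to Adamts18 in the same libraries, so these medians follow from that choice and add no separate result. The points also share libraries and tissue makeup. Over the 19 libraries without the 5 named above, Jph4 was the closest gene (r = 0.82), while Glb1l3 was in place 7 (0.78), Hlf 11 (0.74), Pax6os1 16 (0.73) and Stk35 50 (0.70). None of the 5 closest genes was an ADAMTS gene. Over all 24 libraries, the 36 pairs among the other 9 members had a median r of 0.47 and 32 were above 0, whereas the 9 pairs with Adamts18 had a median of -0.38 and 1 was above 0. Without the 5 libraries the medians were 0.24 and -0.01.

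The remaining 9 members were tested with limma in a fit of all genes and all 24 libraries, with p-values adjusted over all genes by Benjamini-Hochberg. In wild type mice 0 of the 9 passed an adjusted p of 0.05 in the comparison of laser with no laser (5 at an unadjusted p under 0.05, as were 20.0% of all genes), beside 4.23% of all genes that passed as higher and 1.05% as lower. Their median log2 change was 0.51, against -0.10 over all genes tested. In Ceacam1-/- mice 1 of the 9 passed, Adamts5, beside 2.07% of genes higher and 1.65% lower, and the members' median was 0.11, against 0.02 over all genes. When the 13 wild type libraries were fitted alone, which leaves the fold changes as they are and takes the spread from these libraries only, 4 of the 9 rose with laser, Adamts1, Adamts2, Adamts4 and Adamts12, beside 8.13% of genes tested. Fitted alone, the Ceacam1-/- libraries gave 0 of 9 (1 at an unadjusted p under 0.05, as were 13.3% of genes).

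The calls changed when libraries 14, 15 and 18 were left out, a choice made after seeing the data. Within the Ceacam1-/- laser group they were the 3 lowest for 8 of the 9 members, the exception being Adamts5. Leaving out the lowest values of a group raises its mean. The Ceacam1-/- values without these libraries, here and below, are therefore a description. Without these libraries, the same 4 members rose in wild type mice (7.82% of genes passed as higher). In Ceacam1-/- mice Adamts1, Adamts2 and Adamts12 rose (7.6%). Without libraries 21 and 23 as well, Adamts1, Adamts2 and Adamts4 rose in wild type (5.76% of genes), and these with Adamts12 rose in Ceacam1-/- mice (8.66%).

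**Figure D3:**
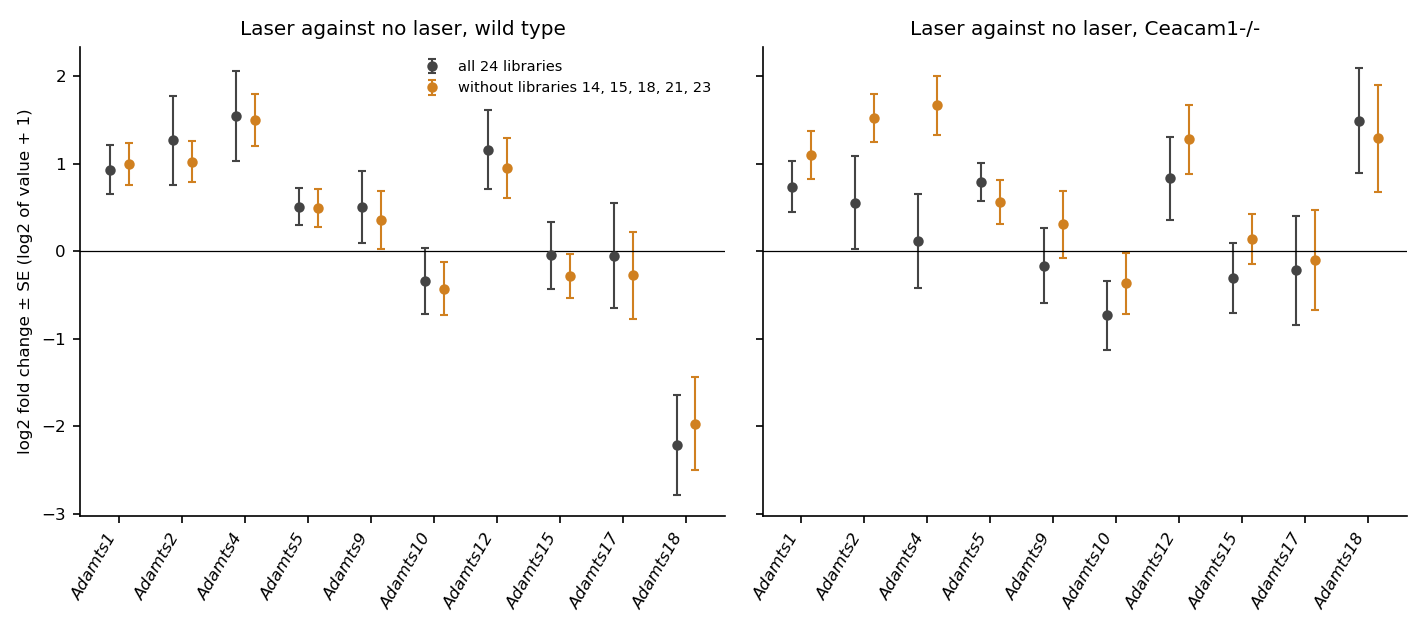
Log2 fold change with laser ± SE of the 10 ADAMTS genes in wild type (left) and Ceacam1-/- mice (right), fitted on all 24 libraries or without libraries 14, 15, 18, 21 and 23. Adamts2 and Adamts4 in Ceacam1-/- mice stand at 0.55 and 0.11 with all libraries and at 1.52 and 1.66 without the 5, while Adamts18 lies below 0 in wild type and above 0 in Ceacam1-/- mice in both fits.

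Among the proteoglycan-cleaving members, Adamts1 (chr16:85590579-85600009, minus strand, GRCm39) was higher in every wild type library with laser than in any without. Without laser it stood at 1274, 1212, 1052 and 943 normalized counts in wild type libraries 21, 22, 26 and 27. With laser it ranged from 1421 (library 2) through a median of 2250.5 to 3102 (library 16). The wild type groups did not overlap, which held for 4.5% of genes in this direction. The log2 change was 0.93 (SE 0.28, limma adjusted p = 0.054), a 1.91-fold difference, and the adjusted p was 0.011 when wild type libraries were fitted alone.

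Without laser, Adamts1 was at 1009.6, 1918, 1003 and 1161 in Ceacam1-/- libraries 23, 24, 25 and 28, and with laser at 1078 to 3121 with a median of 2363. The overlap came from libraries 24 and 28 and from laser libraries 14 and 15. None of the 10 members was higher in every laser library of this genotype than in every library without laser, against 1.17% of genes. The log2 change was 0.73 (SE 0.29, limma adjusted p = 0.16), and 1.19 (SE 0.25, adjusted p = 0.0033) without libraries 14, 15 and 18.

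Adamts4 (chr1:171077986-171089841, plus strand), an aggrecanase that inflammatory cytokines induce in other tissues, was at 202, 264, 282 and 156 in wild type libraries 21, 22, 26 and 27. With laser it ranged from 278 (library 17) through 692 to 1097 (library 3), so that only library 17 reached into the range without laser. The log2 change of 1.54 (SE 0.52) was the largest of the 9 members in wild type, with a limma adjusted p of 0.084 over all libraries and of 0.0028 in wild type libraries alone. Ceacam1-/- library 23 held 1299.7, far above libraries 24, 25 and 28 (179, 169 and 238), and the laser libraries ranged from 96.5 (library 14) to 804 (library 5). The log2 change there was 0.11 (SE 0.54, limma adjusted p = 0.92), and 1.66 (SE 0.34, adjusted p = 0.0025) without the 5 libraries. The 5 include library 23, and leaving out this high value without laser raises the change by itself. Without only the 3 of them from the Ceacam1-/- laser group, Adamts4 did not pass in Ceacam1-/- mice.

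Adamts5 (chr16:85653061-85698716, minus strand), which lies next to Adamts1 on chromosome 16, was the single member that passed in Ceacam1-/- mice. It was at 376, 621, 319.9 and 573 in libraries 23, 24, 25 and 28, and at 608 to 1242 with laser, with a median of 735. The groups overlapped only through library 24. The log2 change was 0.79 (SE 0.22, limma adjusted p = 0.042). The call was lost in 19 of 38 alternatives. These included the fits without any 1 of libraries 3, 4, 6, 7, 11, 12, 14, 18, 23 and 25, with a limma adjusted p for Adamts5 of up to 0.26, reached without library 25. Without libraries 14, 15 and 18, of which library 18 held the highest value, it was 0.65 with an adjusted p of 0.075. In wild type mice Adamts5 was at 507, 502, 422 and 681 without laser and at 549 to 1043 with laser, a log2 change of 0.51 (SE 0.21, adjusted p = 0.16).

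Adamts9 and Adamts15 did not pass in any of the fits above. With array weights, an alternative setting in which 6505 of 19950 genes passed in wild type, Adamts9 passed as well (limma adjusted p = 0.023). Adamts9 (chr6:92749680-92920520, minus strand) ranged from 184 to 518 in wild type without laser and from 216 to 698 with laser, a log2 change of 0.50 (SE 0.41, limma adjusted p = 0.51). Its change in Ceacam1-/- mice was -0.17 (SE 0.43) with all libraries and 0.57 (SE 0.38) without libraries 14, 15 and 18, where it had been at 165, 185 and 179. Adamts9 shares 1389 exon bases with the antisense RNA A730049H05Rik, and the library kit does not mark strand, so that reads there cannot be told apart. Adamts15 (chr9:30810451-30833863, minus strand) ranged from 187 to 388 without laser and from 161 to 436 with laser in wild type mice, a log2 change of -0.05 (SE 0.38). Ceacam1-/- libraries 23, 24, 25 and 28 held 154, 417, 266 and 307, laser libraries 14, 15 and 18 held 77.4, 128 and 144, and the other 4 held 302 to 433. The log2 change there was -0.31 (SE 0.40), and 0.40 without libraries 14, 15 and 18.

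Adamts2 (chr11:50492787-50698400, plus strand), the procollagen N-proteinase, was at 492.7, 909, 1164 and 858 in wild type libraries 21, 22, 26 and 27. With laser it ranged from 1359 (library 17) through 1804 to 2629 (library 16). The groups did not overlap, as for 4.5% of genes in this direction. The log2 change was 1.26 (SE 0.51, limma adjusted p = 0.16) with all libraries, and the SE was 0.22 and the adjusted p 0.0019 in wild type libraries alone.

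The Ceacam1-/- laser group split for Adamts2. Libraries 14, 15 and 18 held 239, 496 and 546, and libraries 4, 5, 6 and 7 held 3205, 2933, 1860 and 2479, against 547, 1074, 551 and 1212 without laser. Each of the 4 was above, and each of the 3 below, all values without laser. The log2 change was 0.55 (SE 0.53, adjusted p = 0.59), and 1.70 (SE 0.29, limma adjusted p = 5.6e-04) without the 3, a 3.24-fold difference. Fibroblast markers, led by Lum, moved with it. They summed to 8875 to 21194 in wild type without laser and 31339 to 53599 with laser, and in the Ceacam1-/- laser group to 7938, 16635 and 13015 in libraries 14, 15 and 18 against 49506 to 71759 in the other 4. None of the 8 fibroblast markers was at 0 in all libraries of a group, and their part in the Adamts2 values was not tested.

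Adamts12 (chr15:11064876-11349318, plus strand) followed the same division of libraries at a lower level. It was at 64.6, 124, 98.5 and 127 in wild type without laser and at 113 to 423 with laser, where libraries 2 and 17 lay within the range without laser. The log2 change was 1.16 (SE 0.46, limma adjusted p = 0.15), with an adjusted p of 0.040 in wild type libraries alone. It was at 45.8, 181, 112 and 97.7 in the Ceacam1-/- libraries without laser, at 89.8, 84.6 and 73.5 in libraries 14, 15 and 18, and at 256 to 437 in the other 4 laser libraries. The log2 change of 0.83 (SE 0.48, adjusted p = 0.34) became 1.63 (SE 0.42, limma adjusted p = 0.015) without those 3.

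The microfibril-associated members Adamts10 and Adamts17 did not pass in any of the fits above. Adamts10 (chr17:33742987-33772758, plus strand) was at 2059, 2474, 4164 and 1805 in wild type without laser and at 1185 to 4712 with laser, the highest being library 17. Its log2 change was -0.34 (SE 0.38, limma adjusted p = 0.63) in wild type and -0.73 (SE 0.39, adjusted p = 0.31) in Ceacam1-/- mice, the latter -0.10 without libraries 14, 15 and 18. Adamts17 (chr7:66489439-66802919, plus strand) was at 31.5, 54.0, 88.9 and 44.0 in wild type without laser and at 20.02 to 148 with laser, a log2 change of -0.05 (SE 0.60). It ranged in Ceacam1-/- mice from 16.2 to 196 without laser and from 19.4 to 151 with laser. Its change there was -0.22 (SE 0.63), and 0.57 without libraries 14, 15 and 18.

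None of the 9 members differed between genotypes by the limma adjusted p. The interaction of laser and genotype passed for 0 of them (0 at an unadjusted p under 0.05), beside 0.0% of genes in all (6.22% at an unadjusted p under 0.05). Its estimates for the 9 ran from -1.43 (SE 0.75) for Adamts4 to 0.28 (SE 0.30) for Adamts5. That of Adamts4 was 0.17 (SE 0.45) without the 5 libraries. Between genotypes with laser, 0 of 9 passed (1, Adamts4, at an unadjusted p under 0.05), beside 0.0202% of genes (22.7% at an unadjusted p under 0.05), and the estimates ran from -0.93 (Adamts4) to 0.24 (Adamts17). Without laser, 0 of 9 passed (0 at an unadjusted p under 0.05), beside 0.0% of genes (1.53% at an unadjusted p under 0.05), with estimates from -0.19 (Adamts5) to 0.53 (Adamts9). With SEs of this size, small differences were not detectable, and a missed threshold does not show that the genotypes were alike.

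The rest of the ADAMTS pathway was followed in 7 lists of other genes. Of the 9 other ADAMTS genes, 8 had a mean of at least 10 normalized counts and were tested. None of the 8 passed in either genotype (4 in wild type and 1 in Ceacam1-/- mice at an unadjusted p under 0.05, beside 20.0% of all genes in each), and their median log2 change was 1.13 in wild type and 0.28 in Ceacam1-/- mice. Adamts7, which like Adamts12 cleaves cartilage oligomeric matrix protein, was at a median of 38.4 without laser and 103 with laser in wild type mice (log2 change 1.52, SE 0.48, limma adjusted p = 0.069). Of the 8, Adamts14 had the largest change in wild type (2.20, SE 0.79, limma adjusted p = 0.11) and Adamts8 the lowest adjusted p (1.25, SE 0.37, adjusted p = 0.052). In Ceacam1-/- mice their means without and with laser were 25.6 and 46.7 for Adamts14, and 96.0 and 121.6 for Adamts8. Adamts3, a procollagen N-proteinase like Adamts2, had a log2 change of -0.36 (SE 0.90) in wild type and 1.72 (SE 0.94) in Ceacam1-/- mice. Libraries 14, 15, 18, 21 and 23 were also the 5 highest for Adamts3. Its means were 141 without and 81.3 with laser in wild type and 94.3 and 207 in Ceacam1-/- mice, and without those 5 libraries 69.4 and 81.3, and 19.3 and 56.8. Adamts16, the closest relative of Adamts18 in sequence, had changes of 1.01 (SE 0.54) and -0.50 (SE 0.57).

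Among 8 inhibitors and clearance receptors, Timp1, a secreted metalloprotease inhibitor, rose most. It had medians of 158 without and 4847 with laser in wild type (log2 change 4.69, SE 0.41, limma adjusted p = 4.6e-07), and of 218 and 4269 in Ceacam1-/- mice (4.23, SE 0.43, adjusted p = 7.7e-06). The groups did not overlap in either genotype, which held in this direction for 4.5% of genes in wild type and 1.17% in Ceacam1-/- mice. A2m, a broad protease inhibitor, rose in wild type mice (1.82, SE 0.39, limma adjusted p = 0.0066). Timp4 fell by 2.38 on the log2 scale in Ceacam1-/- mice (SE 0.53, limma adjusted p = 0.014), a call lost with the Ceacam1-/- libraries alone (adjusted p = 0.17) and without library 25 (0.12) or 24 (0.053). Timp3 had medians of 52476 and 57505 in wild type mice and a log2 change of 0.01 (SE 0.52). Its medians in Ceacam1-/- mice were 45471 and 44891, its means 47959 and 34669, and its log2 change -0.91 (SE 0.54, limma adjusted p = 0.36). In all, 2 of 8 rose in wild type (4.23% of all genes did), and 1 rose and 1 fell in Ceacam1-/- mice (2.07% and 1.65% of all genes).

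Of the substrates, 2 of 6 fibrillar procollagens rose in wild type mice, beside 4.23% of all genes. These were Col3a1 (log2 change 2.50, SE 0.57, limma adjusted p = 0.0096) and Col5a2 (2.15, SE 0.47, adjusted p = 0.0077). Both calls were lost without library 21 (limma adjusted p = 0.060 and 0.057). In Ceacam1-/- mice 0 of 6 passed, beside 2.07% of genes that rose. Of the 6, 3 were at an unadjusted p under 0.05, as were 20.0% of all genes, and the list median was 1.48. Without libraries 14, 15 and 18, the counts were 4 of 6 and 5 of 6, beside 7.82% and 7.6% of all genes that rose in that fit. Of 8 proteoglycans and link proteins, the versican gene Vcan rose in wild type (1.93, SE 0.56, limma adjusted p = 0.044), beside 4.23% of all genes. The call was lost in 17 of 38 alternatives (1.34 with adjusted p = 0.25 without library 21). In Ceacam1-/- mice 0 of 8 passed, beside 2.07% of genes that rose (0 at an unadjusted p under 0.05, against 20.0% of all genes). Of 9 microfibril and matrix genes, Fn1 (2.10, SE 0.39, limma adjusted p = 0.0020) and Thbs1 (1.93, SE 0.44, adjusted p = 0.0088) rose in wild type, beside 4.23% of all genes. Fn1 rose in Ceacam1-/- mice (1.73, SE 0.41, limma adjusted p = 0.020), beside 2.07% of all genes. That call was lost in 2 of 38 alternatives, with an adjusted p of up to 0.19. Without libraries 14, 15 and 18, 4 of 9 rose in wild type and 7 of 9 in Ceacam1-/- mice, where 7.82% and 7.6% of all genes rose. The fibroblast markers described with Adamts2 moved with both lists, and their part in these values was not tested.

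Of 6 genes for activation and glycosylation, 1 rose in wild type, beside 4.23% of all genes. This was B3glct, which adds glucose to the fucose on thrombospondin repeats (log2 change 0.96, SE 0.26, limma adjusted p = 0.029, lost in 5 of 38 alternatives, up to 0.12 without library 21). In Ceacam1-/- mice 0 of 6 passed, beside 2.07% of genes that rose (1 at an unadjusted p under 0.05, as were 20.0% of all genes). Of 7 ADAMTS-like genes, which encode related proteins without the protease domain, Adamtsl5 fell in both genotypes, beside 1.05% of all genes in wild type and 1.65% in Ceacam1-/- mice. Its log2 change was -0.76 in wild type (SE 0.21, limma adjusted p = 0.036) and -1.204 in Ceacam1-/- mice (SE 0.22, adjusted p = 0.0034). The wild type call was lost in 10 of 38 alternatives, with an adjusted p of up to 0.17 without library 22, and the Ceacam1-/- call with those libraries alone (0.099). Its medians were 1742 without and 959 with laser in wild type and 2054.5 and 739 in Ceacam1-/- mice.

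**Figure D4:**
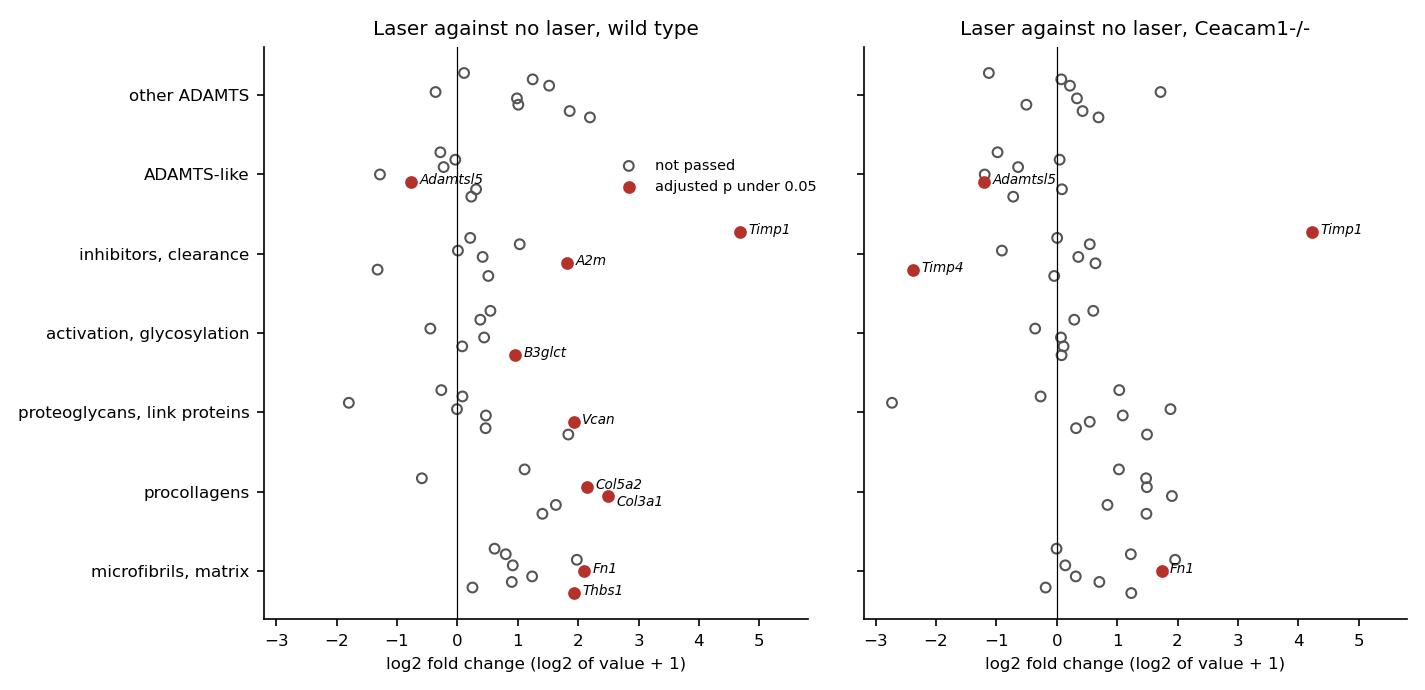
Log2 fold change with laser of every tested gene of the 7 other lists in wild type (left) and Ceacam1-/- mice (right), 1 point per gene, filled and named where the limma adjusted p was under 0.05. Timp1 lies far to the right in both genotypes and Adamtsl5 to the left, while the procollagens lie above 0 in Ceacam1-/- mice with none filled.

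Myeloid markers, led by Lyz2, also moved with laser. They summed to 11015 to 22753 in wild type without laser and to 50765 to 131862 with laser, and in Ceacam1-/- mice to 11982 to 16350 without and 16555 to 94263 with laser, lowest in libraries 14, 15 and 18. None of the 10 markers was at 0 in all libraries of a group, and their part in the values of Adamts1, Adamts4, Timp1 and the matrix genes was not tested. Skeletal muscle markers, led by Atp2a1 without laser and Acta1 with laser, moved the other way. Their sum had medians of 569039 without and 392570 with laser in wild type, and of 687333 and 125372 in Ceacam1-/- mice. None of the 9 was at 0 in all libraries of a group, and their part in the values of Timp4 and Adamtsl5, which fell, was not tested.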

How the data were processed

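Total RNA of choroid was converted to cDNA and libraries with a SMART-Seq kit, which does not mark strand. Per the submitters' processing notes, the authors checked reads with FastQC 0.11.5, quantified them with Salmon 1.10.3 against GRCm39 and normalized them with DESeq2 1.44.0. The deposited values are normalized counts (unit signal), 1 column per library, of 56065 genes. They sum to 23704300 to 35094400 per library. Between 6.61% and 54.0% of low values lay within 0.1 of a whole read, so reads were not recovered and no count test was run. Of the genes, 99.1% matched the annotation of GRCm39. Genes with a mean of at least 10 were tested on log2(value + 1) with limma 3.58.1 (R 4.3.3), with trend and Benjamini-Hochberg adjustment. The laser comparisons and the interaction used all 24 libraries, and the genotype comparisons only the libraries compared. A fold change on this scale understates that of low genes. The procedure was checked on simulated data, with independent noise and, for each gene, the same spread in all groups. Unequal spread between groups and shared shifts in tissue makeup were not simulated. Levels per kb used the canonical transcript. Members, gene lists and marker lists were chosen with earlier results of these data known. Named were all members, genes of the 7 lists, those past an adjusted p of 0.05 first and then some others, and the 5 genes most correlated with Adamts18. Alternatives were the pseudocount, the filter, scaling, limma settings, array weights, a covariate of Y-linked genes, other sets of libraries and leaving out each library. The fits without libraries 14, 15, 18, 21 and 23 and with a photoreceptor covariate were added after seeing the data. Certain items are not reported here.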

Additional observations from a re-analysis of the deposited data

Results flagged for a closer look

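Of 40 groups of libraries of the 10 members, 3 held a library far from the others of its group, where chance gives about 1 in 20 groups. Adamts4 was at 1299.7 normalized counts in library 23 of the Ceacam1-/- group without laser, against 169 to 238 in the other 3. This library also had a photoreceptor sum of 354711, whose part in the value was not tested. Adamts5 was at 1242 in library 18 of the Ceacam1-/- laser group, against 608 to 824 in the others. Adamts10 was at 4712 in library 17 of the wild type laser group, against 1185 to 2441 in the others.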

How the results depend on the processing

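Over all genes, 1053 passed with laser in wild type mice, and 742 did so in Ceacam1-/- mice. With array weights these were 6505 and 3551, with only the 2 groups compared in the fit 2274 and 38, without libraries 14, 15 and 18 2128 and 2005, and without all 5 libraries 1645 and 2923. With no filter, 437 passed in Ceacam1-/- mice. Leaving out 1 library at a time gave 479 (library 21) to 1257 in wild type mice and, for the Ceacam1-/- comparison, 148 (library 25) to 2488 (library 23). The counts also moved by over 1.5 times without library 27 (554), 24 (255) and 5 (466). Between genotypes with laser, 4 genes passed, and 2 with a mean of at least 50, 297 with array weights, 9 with all 24 libraries, 2 without the 3 and 2 without the 5 libraries (4 to 61 with 1 library left out, the highest without library 19, and 25 and 7 without libraries 17 and 4). Without laser 0 passed, and 1 without trend or with array weights (0 to 1 with 1 left out). For this comparison the study did report differentially expressed genes, with DESeq2 and sex as a covariate, which is a different test.

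Of the 9 members, 0 passed in wild type, and 1 with a mean of at least 50, 5 with array weights, 4 with wild type libraries alone, 4 without the 3 libraries and 3 without the 5 (0 to 2 with 1 left out, Adamts1 without library 2, 14, 15, 17 or 24 and Adamts4 without library 14 or 23). In Ceacam1-/- mice 1 passed, and 0 with no filter, with upper-quartile scaling, without trend, with the Y-linked covariate, with the Ceacam1-/- libraries alone or with the photoreceptor covariate, 3 with array weights, 3 without the 3 and 4 without the 5 libraries (0 to 1 with 1 left out). Adamts5, the member that passed, was not among those 3, 3 and 4.

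Adamts18, chosen on its signs, ranged over the alternatives from -2.42 to -1.61 in wild type and from 0.76 to 2.02 in Ceacam1-/- mice. Col3a1 and Col5a2 in wild type lost their calls without library 21 (limma adjusted p = 0.060 and 0.057), and Fn1 in Ceacam1-/- mice without library 25 (0.14) or with those libraries alone (0.19). The sign turned for 4 members with small changes. In Ceacam1-/- mice Adamts4 was at -0.026 with quantile normalization (-0.18 to 0.80 with 1 library left out). Adamts9 there was at 0.57 without the 3 libraries, 0.30 without the 5 and 0.34 with the photoreceptor covariate (-0.43 to 0.11). Adamts15 was at 0.40, 0.14 and 0.10 in those fits (-0.57 to -0.06), and at 0.052 in wild type with array weights (-0.28 to 0.067). Adamts17 in wild type was at 0.10 with quantile normalization and 0.25 with array weights (-0.28 to 0.21), and in Ceacam1-/- mice at 0.17 with array weights, 0.57 without the 3 libraries and 0.27 with the covariate (-0.89 to 0.29). The cause was not tested. No paired analysis was run because the sources used here do not say whether any libraries are paired.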
